A study of Homo sapiens with 68 samples.

Results

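The comparison sets the RNA contacts of hnRNPA1 against those of hnRNP C in HEK293T cells, a human embryonic kidney line, at the higher of the RNase amounts used for both proteins. Its members are 4 of the 68 libraries of the study, chosen by their labels: 2 libraries of hnRNPA1 and 2 of hnRNP C, each from 50000 crosslinked cells digested with 0.025 U of RNase, which the labels call medium. The study tested TLC-CLIP, in which ultraviolet light links a protein to the RNA it touches, an antibody pulls the protein down, and the attached RNA fragments are sequenced. It profiled 4 RNA-binding proteins in 34 groups of 2 libraries. The antibodies were hnRNPA1 (4B10) and hnRNP C1/2 (4F4), and the labels write the group of the latter as hnRNPc. All 4 libraries come from the same cell line with the same crosslinking, and the labels give no other treatment. Nothing in the labels says whether replicates came from separate cultures, so the spread between replicates may be technical.

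hnRNPA1 and hnRNP C are abundant nuclear proteins that coat newly made transcripts. hnRNP C stays in the nucleus, assembles as a tetramer, packages nascent RNA and prefers runs of uridine, including those near splice sites and in antisense Alu elements. hnRNPA1 shuttles between nucleus and cytoplasm, prefers UAGG-like motifs and is best known for blocking splice sites and exons. Sequence under the peaks was not examined here, since no genome of the build of the lists was used.

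The lists held 1445660 of the 15800601 peaks of the study. They comprised 365593 and 408978 peaks for hnRNPA1 and 304672 and 366417 for hnRNP C, or 387286 ± 30678 (SD, n = 2) against 335544 ± 43660 (SD, n = 2). The log2 peak number was 0.21 higher in hnRNPA1, with an exact two-sided permutation p of 0.667, and the groups overlapped. The median peak width was 52 and 51 nt in hnRNPA1 and 55 and 52 nt in hnRNP C (exact two-sided permutation p 0.667). With 2 libraries against 2 the exact test cannot give a p below 0.333. The number of sequenced reads is not known, so a peak missing from a list is a peak not called, not a contact shown to be absent.

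The first question was how many sites belonged to one protein and how many to both. Overlapping peaks of one strand, by 1 nt or more, were joined into 905106 sites. An hnRNPA1-only site had a peak in both hnRNPA1 lists and in no hnRNP C list, an hnRNP C-only site the reverse, and a shared site a peak in all 4. There were 156185 hnRNPA1-only sites (17.3% of all sites), 127311 hnRNP C-only sites (14.1%) and 18136 shared sites (2.00%). These counts depend on the number and length of the lists. Leaving out hnRNPA1 replicate 1 or 2 raised hnRNPA1-only sites to 323456 or 286919, and leaving out hnRNP C replicate 1 or 2 raised hnRNP C-only sites to 286345 or 245640. Shared sites numbered 37347 without hnRNP C replicate 1, 5209 with peaks of p below 1e-05 and 3648 with the best 100000 peaks per library. Most of the remainder, 543476 sites or 60.0% of all, had a peak in a single library.

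Among sites that both hnRNPA1 libraries listed, 77.0% had no hnRNP C peak and 8.94% had a peak in both hnRNP C libraries. Among sites that both hnRNP C libraries listed, 81.2% had no hnRNPA1 peak and 11.6% had a peak in both hnRNPA1 libraries. The sites bound reproducibly by either protein were thus mostly free of called peaks of the other. Another 59998 sites held peaks of both proteins without being in all 4 lists.

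The hnRNP C libraries differed in how often they met hnRNPA1. A peak of hnRNP C replicate 2 alone joined both hnRNPA1 replicates at 19912 sites, and a peak of replicate 1 alone at 8526 sites. At those sites the hnRNP C peaks were weak within their own lists. Their median read number was 8 for replicate 2, at percentile 42.7 of that list, and 7 for replicate 1, at percentile 33.7. The read number is the last number in the deposited peak name, read here as a count of reads. No source defines it. It is used to rank peaks within a list, to describe single sites and, summed per gene, in an alternative setting of the gene test.

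**Figure D1:**
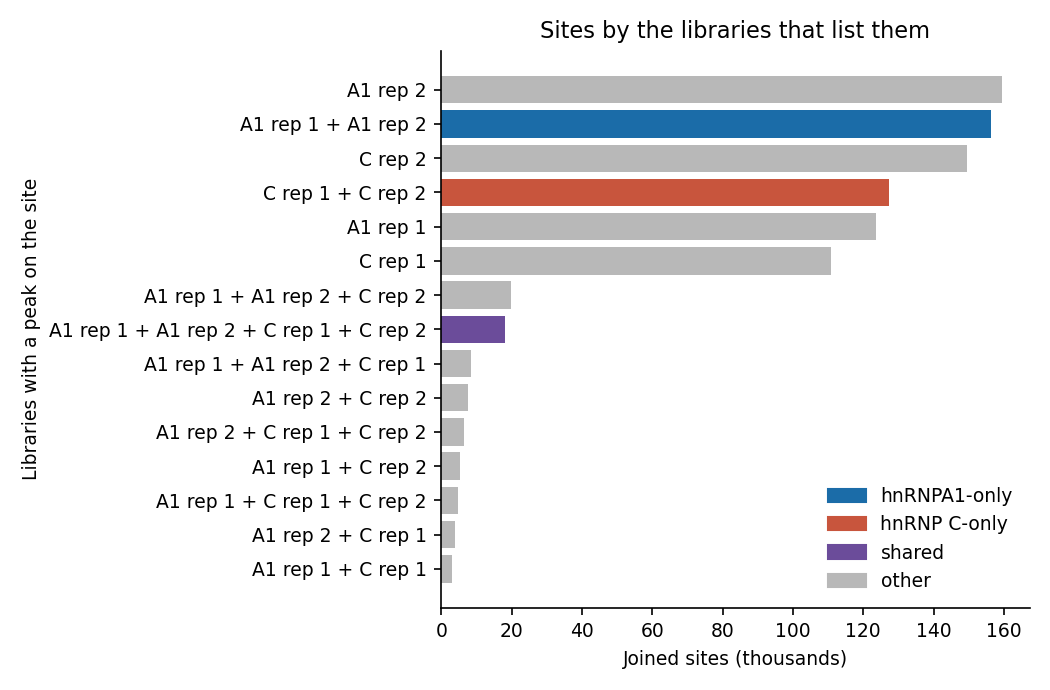
Number of joined sites, on the axis in units of 1000 sites, for each set of medium RNase libraries with a peak on the site (A1, hnRNPA1; C, hnRNP C; rep, replicate). The sites of one protein in both replicates, 156185 and 127311, far outnumber the 18136 sites listed in all 4 libraries.

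Shared sites were the strongest of the hnRNPA1 sites but not to the same degree of the hnRNP C sites. In the hnRNPA1 lists their peaks had a median read percentile of 82.0 and 84.8, against 62.5 and 60.8 at hnRNPA1-only sites. In the hnRNP C lists the percentiles were 66.6 and 76.8, against 66.6 and 64.6 at hnRNP C-only sites, so replicate 1 showed no difference. Shared sites were also wider, with a median of 110 nt against 66 nt and 73 nt. Joining peaks of more libraries can itself widen a site.

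Leading sites of each class, among the 6 with the highest lower read number of the required libraries, are given by position in hg19. Distances to the other protein are to its medium RNase peaks on the same strand. Reads are those of the largest peak of a library on the site. In libraries that did not define the sites, that peak can reach beyond the site. Of hnRNPA1-only sites, the minus-strand site at chrX:73067072-73067145 had 1936 and 1929 reads in the hnRNPA1 replicates. The nearest medium RNase hnRNP C peak lay 62 nt away. The low RNase hnRNP C libraries had a peak on it, with 43 and 257 reads, and the other 4 hnRNP C libraries had none. The hnRNPA1-only site at chr12:13836636-13836668, on the plus strand, stood far from any medium RNase hnRNP C peak of its strand, with the nearest 546101 nt away. It had 372 and 392 reads at medium RNase, 64 and 110 at low RNase and a peak in all 6 other hnRNPA1 libraries but in none of the 6 other hnRNP C libraries of the test given below.

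The leading hnRNP C-only site was mitochondrial, at positions 2839 to 2888 of the plus strand, with 2895 and 3250 reads. It is described with the exceptions. The next, chrX:73072222-73072474 on the minus strand had 1836 and 1777 reads, and the nearest hnRNPA1 peak was 524 nt away. It lay under the same gene identifier as the strongest hnRNPA1-only site, so that one transcript carried leading sites of both classes. The site at chr5:179049459-179049510 on the minus strand had 404 and 426 reads in hnRNP C and lay 39 nt from an hnRNPA1 peak. It had a peak in all 6 hnRNP C libraries of that test, with 41 to 918 reads, and in none of its 6 hnRNPA1 libraries.

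Shared sites included the top peak of each protein. The plus-strand site at chr6:52860646-52860745 had 19918 and 21176 reads in hnRNPA1, the highest number of each hnRNPA1 list, and 668 and 706 in hnRNP C. The mitochondrial site at positions 2258 to 2304 of chromosome M had 16485 and 16855 reads in hnRNP C, the highest of each hnRNP C list, and 4968 and 4607 in hnRNPA1. Both were listed in all 12 libraries of that test.

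Not every leading site kept its class elsewhere, in either protein. The leading hnRNP C-only site, at mitochondrial positions 2839 to 2888, was overlapped by hnRNPA1 peaks of 63642 and 68871 reads without PAGE and of 58582 and 64245 with RecJ. The hnRNP C-only site at mitochondrial positions 5805 to 5859, with 405 and 596 reads, had a peak in all 6 hnRNPA1 libraries of the test, with 28 to 149 reads. The hnRNPA1-only site at chr11:65272517-65272582, with 812 and 936 reads, lay 1 nt from an hnRNP C peak, and 5 of the 6 hnRNP C libraries of the test had a peak on it. The mitochondrial hnRNPA1-only site at positions 2091 to 2106 was likewise listed in hnRNP C without PAGE, with 18863 and 20039 reads.

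The second question was whether the classes hold in libraries that did not define them. The test used the 12 crosslinked libraries of the same antibodies whose titles give 50k cells and lowRNase, noPAGE or noPAGE_RecJ, after steps of the protocol. Libraries without crosslinking were not part of it, nor were the hnRNP C libraries titled 5k and 500, whose labels give 50000 cells against their titles. PAGE is a gel separation and RecJ an exonuclease of single-stranded DNA. The labels give 0.005 U of RNase for all 12. hnRNPA1-only sites were overlapped in 63.4% to 71.6% by the 6 hnRNPA1 libraries. They were overlapped in 8.39% to 11.1% by 5 hnRNP C libraries and in 0.129% by hnRNPc_50k_lowRNase replicate 1, a list of 3268 peaks.

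hnRNP C-only sites were overlapped in 38.9% to 57.4% by the same 5 hnRNP C libraries and in 1.09% by the short list. The 6 hnRNPA1 libraries overlapped them in 2.49% to 4.35%. Moved by 1000 nt along the strand, hnRNP C-only sites met an hnRNPA1 peak in 15.0% to 17.1%, so hnRNPA1 peaks were rarer on these sites than beside them. hnRNPA1-only sites showed this in 4 of the 5 full hnRNP C lists, with 8.39% to 10.8% against 11.99% to 14.3% moved, while hnRNPc_50k_lowRNase replicate 2 had 11.1% against 8.03%. Each class was chosen to lack a medium RNase peak of the other protein.

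The log2 ratio of hnRNPA1-only over hnRNP C-only sites overlapped ran from 4.21 to 5.14 in the 6 hnRNPA1 libraries and from -2.77 to -1.52 in the 6 hnRNP C libraries. The ranges did not overlap in any protocol. The mean difference was 6.70, with an exact two-sided permutation p of 0.00926, the smallest that the 216 relabellings within protocols allow. By protocol the difference was 7.26 at low RNase, 6.35 without PAGE and 6.50 with RecJ. Without the short list it was 6.49. The libraries without crosslinking, which were outside the test, had ratios of similar size. These ran from 5.41 to 5.80 with the hnRNPA1 antibody and from -2.18 to -1.30 with the hnRNP C antibody. The part of crosslinking in the separation was not tested.

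Shared sites kept both proteins. The hnRNPA1 libraries overlapped 68.1% to 73.2% of them, and the hnRNP C libraries other than the short list 52.8% to 62.9%, against 18.1% to 26.5% for the same sites moved by 1000 nt.

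**Figure D2:**
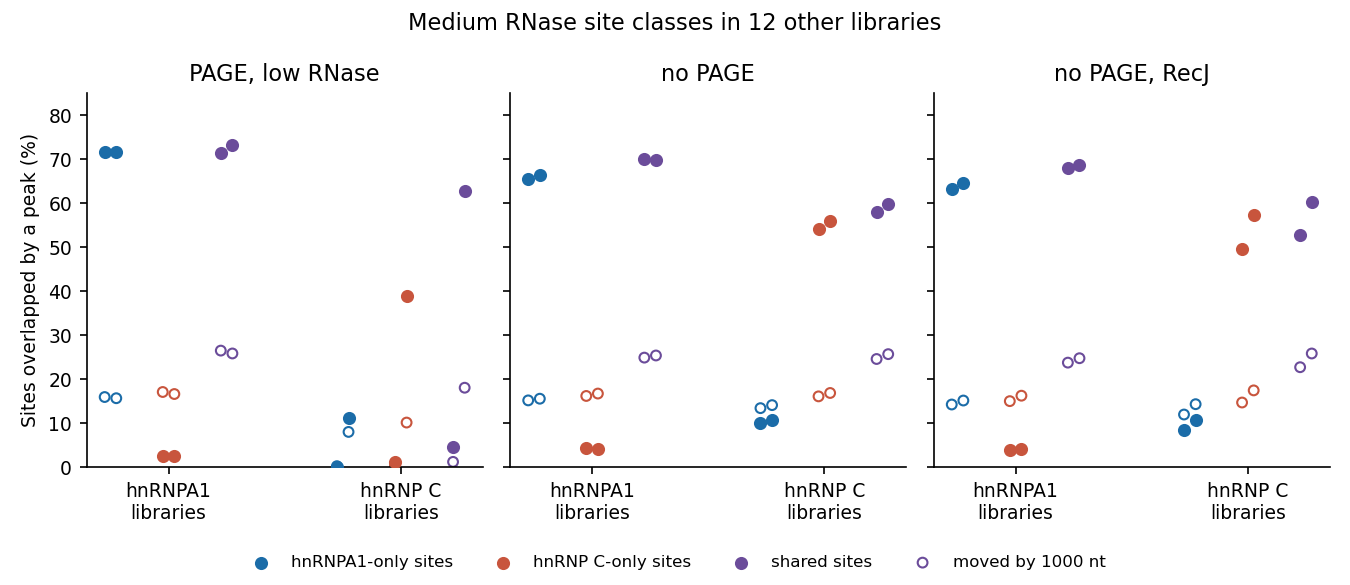
Percent of sites of each medium RNase class overlapped by a peak in 12 other crosslinked libraries titled 50k (filled points, 1 per library) and after moving the sites by 1000 nt (open points), by protocol. hnRNPA1-only sites are at 63.4% or above in hnRNPA1 libraries and at 11.1% or below in hnRNP C libraries, and hnRNP C-only sites show the reverse order except in the short list near 0.

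Overlap was next measured peak by peak. An hnRNPA1 peak overlapped a peak of an hnRNP C library in 11.8% ± 0.308 of cases (SD, n = 2), against 9.16% after moving it by 1000 nt and 57.6% for the other hnRNPA1 replicate. That SD leaves out the spread between the hnRNP C libraries. With hnRNP C replicate 1 the overlap was 9.97% and 9.55%, against 8.72% and 8.42% moved. With replicate 2 it was 14.1% and 13.6%, against 9.91% and 9.59% moved. An hnRNP C peak overlapped hnRNPA1 in 13.2% ± 1.59 (SD, n = 2), against 10.6% moved and 52.0% for its own replicate. The overlap between the proteins was thus close to that of moved peaks. Whether a moved peak stays in the same transcript was not tested. Both hnRNP C replicates exceeded the moved value in every pairing, replicate 2 by more. Peaks of replicate 2 were overlapped by hnRNPA1 in 13.8% and 14.9%, against 9.92% and 10.8%. For replicate 1 the values were 11.7% and 12.5%, against 10.4% and 11.2%.

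The strongest peaks behaved differently in the 2 proteins. Of the 1000 hnRNPA1 peaks with the smallest deposited p, 72.5% were overlapped by an hnRNP C peak (67.8% to 77.0% over the library pairs), against 22.4% moved. Of the 1000 best hnRNP C peaks, 34.5% were overlapped by hnRNPA1 (32.1% to 37.5%), against 24.3% moved. The ranges did not overlap. Among the best 10000 the values were 48.8% for hnRNPA1, against 18.3% moved, and 22.1% for hnRNP C, against 22.1% moved. The hnRNP C replicates lay on opposite sides of the moved value. Replicate 1 had 20.35% and 21.41%, against 22.04% and 22.86% moved, and replicate 2 had 22.81% and 23.99%, against 21.52% and 21.86%. The own replicate overlapped 99.5% of the best 1000 in both proteins.

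RBFOX2 overlapped the best hnRNPA1 peaks to a similar extent. Of the best 1000 hnRNPA1 peaks, 70.1% were overlapped in low RNase libraries of RBFOX2, a splicing factor that binds UGCAUG, and 48.5% in those of hnRNPI, the polypyrimidine tract binding protein, against 19.7% and 13.4% moved. Of the best 1000 hnRNP C peaks, 33.1% were overlapped by RBFOX2 and 31.6% by hnRNPI, against 16.0% and 12.5% moved. The best 1000 peaks came from 459 and 480 gene identifiers in hnRNPA1 and from 371 and 325 in hnRNP C. The part of RNA abundance in these overlaps was not tested.

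**Figure D3:**
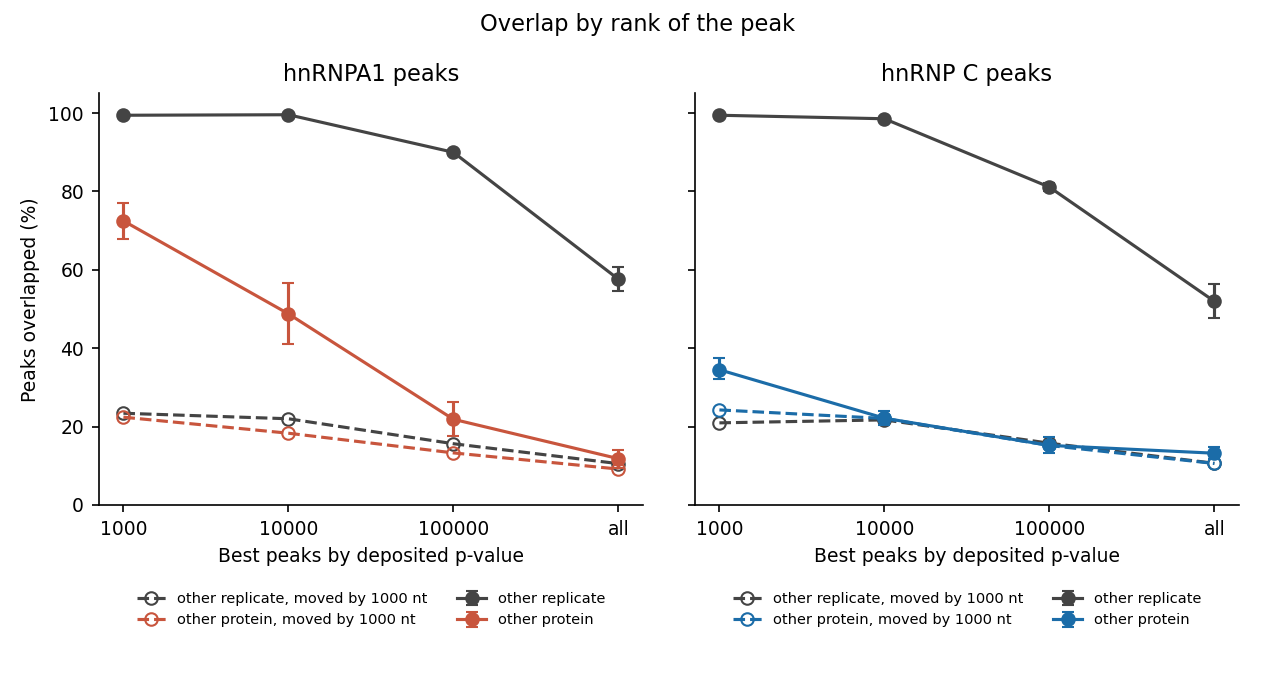
Percent of the best 1000, 10000, 100000 and of all peaks of hnRNPA1 (left) and hnRNP C (right) that share at least 1 nt with a peak of the other replicate or of the other protein, as means with the lowest and highest library pair as bars. Dashed lines are peaks moved by 1000 nt: the other protein stands above its dashed line at 1000 best hnRNPA1 peaks (72.5% against 22.4%) and meets it only on average at 10000 best hnRNP C peaks (22.1%).

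The distance between peak centres was also close to that of moved centres. The nearest hnRNP C centre lay at a median of 578 ± 16.8 nt (SD, n = 2) from an hnRNPA1 centre, against 602 nt for moved centres and 23.3 nt for the other hnRNPA1 replicate. That SD leaves out the spread between the hnRNP C libraries: the median was 647 and 671 nt to hnRNP C replicate 1 and 485 and 508.5 nt to replicate 2. It was 1281.5 nt with peaks of p below 1e-05 and 1439 nt with the best 100000 peaks per library, which leave fewer peaks. From hnRNP C to hnRNPA1 the median was 445 ± 8.84 nt (SD, n = 2), against 423 nt moved and 51.0 nt for the other replicate. In all 4 library pairs hnRNP C centres were slightly farther from hnRNPA1 than moved centres were, although their peaks overlapped hnRNPA1 more often than moved peaks did. hnRNPA1 centres were slightly nearer to hnRNP C than moved centres.

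The excess over moved centres was relatively largest at short range. An hnRNP C centre lay within 10 nt of 4.40% of hnRNPA1 centres, against 1.87% moved, and an hnRNPA1 centre within 10 nt of 4.99% of hnRNP C centres, against 2.17%. Within 100 nt the values were 17.6% against 15.8%, and 19.5% against 18.4%. For hnRNP C replicate 1 the last difference was gone, with 17.7% and 19.1% against 17.8% and 19.3% moved. At 1000 nt, 64.2% and 73.1% had a neighbour of the other protein, against 63.2% and 73.1%.

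Within shared sites the proteins were less exactly placed than replicates were. The centres of hnRNPA1 and hnRNP C differed by a median of 18 to 20 nt, against 6 nt between hnRNPA1 replicates and 10 nt between hnRNP C replicates. The hnRNP C centre lay downstream of the hnRNPA1 centre in 51.3% to 51.8% of sites and upstream in 46.2% to 46.8%, with a median offset of 1 nt.

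Each protein had its own spacing. Pairs of centres up to 600 nt apart were counted between libraries in bins of 20 nt and divided by the mean over centres moved by 3000 nt. Between hnRNP C replicates, beyond the central peak, the density had local maxima at 120 to 140 nt (2.31, 2.28 to 2.34 over both directions) and at 240 to 260 nt (1.72). With peaks of p below 1e-05 they stood at 120 to 140 nt (3.26) and 260 to 280 nt (2.42). Between hnRNPA1 replicates a single shoulder at 80 to 100 nt (1.95) was followed by a decline to 1.34 at 240 to 260 nt, and with p below 1e-05 it lay at 60 to 80 nt (2.89).

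Between hnRNPA1 and hnRNP C no such series was seen. The density was 1.97 and 2.25 in the bins on each side of 0, fell to 0.89 at 40 to 60 nt and stayed between 0.974 and 1.04 in every bin from 80 to 320 nt. It was 1.00 at 120 to 140 nt, where the hnRNP C pairs had their maximum. Downstream, all 3 kinds of pair had a dip at 40 to 60 nt. Upstream, the mixed pairs were lowest at 20 to 40 nt (0.88).

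**Figure D4:**
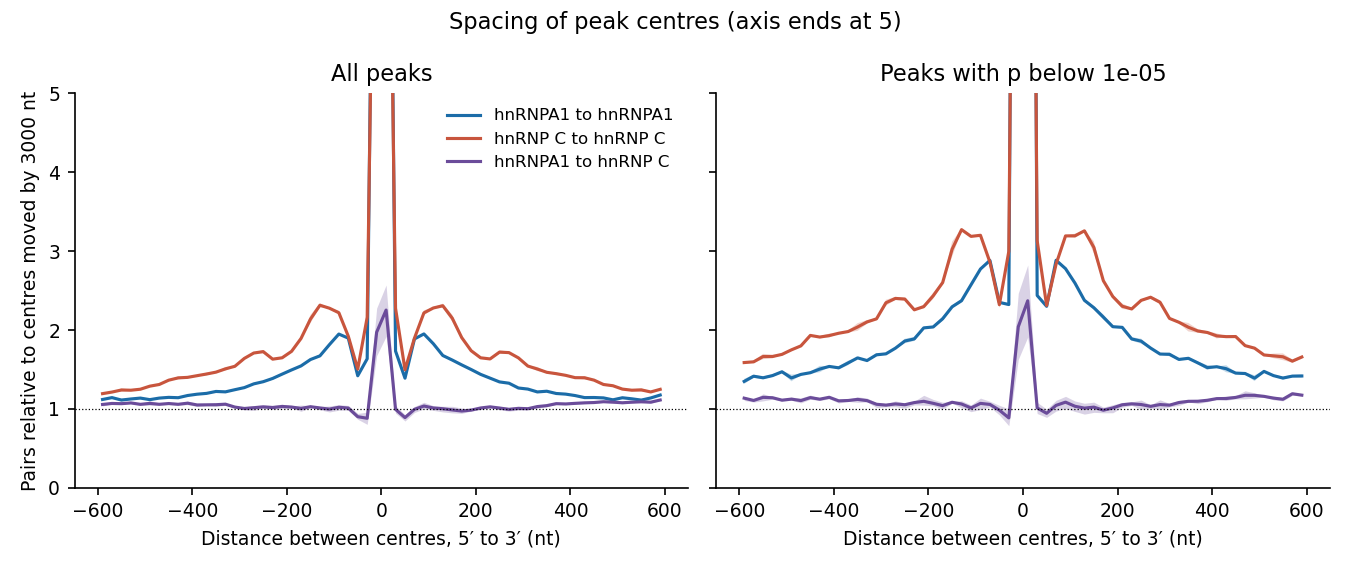
Density of peak-centre pairs by signed distance in the direction of transcription, in bins of 20 nt, relative to centres moved by 3000 nt, for all peaks and for peaks of p below 1e-05 (lines, means over library pairs; shading, lowest to highest pair; the axis ends at 5, below the central same-protein peaks). hnRNP C pairs show shoulders at 120 to 140 nt and at 240 to 260 nt (260 to 280 nt at p below 1e-05), hnRNPA1 pairs a single one at 80 to 100 nt, and pairs of both proteins stay near 1 outside the centre.

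The same grouping appeared along transcripts. Of neighbouring one-protein sites in a gene that were less than 50 nt apart, 82.5% of 19995 pairs were of the same protein. The shares of each class in the genes concerned would give 54.0%. The value was 80.6% at 50 to 100 nt, 70.8% at 100 to 200 nt, 61.6% at 200 to 500 nt and 57.2% at 500 to 1000 nt. At 1000 to 5000 nt it was 55.6%, against 54.8% from the gene shares. Peaks that overlap had been joined, and joined sites of both proteins belong to neither class, so the shortest gaps favour pairs of one protein by construction. Peaks that abut without overlap stayed separate sites, and their part in the shortest gaps was not tested.

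Nearly all genes with many sites held sites of both proteins. Of 6556 gene identifiers with at least 10 sites in the 3 classes, 6529 (99.6%) held sites of both proteins, 27 held hnRNPA1 sites only and 0 held hnRNP C sites only. All 1787 identifiers with at least 50 sites held both. The median share of hnRNPA1-only sites in genes with at least 10 was 51.6%, with 32.6% and 72.7% at the 10th and 90th percentiles. At such shares a gene with many sites would usually hold both by number alone. The share expected from the site counts was not computed. Genes with sites of one protein in the 3 classes mostly had few such sites: 54.1% of the 2366 with hnRNPA1 sites only had a single site, as did 77.1% of the 1304 with hnRNP C sites only. These genes can still hold called peaks of the other protein outside the 3 classes. By peaks, 1087 of all 16877 gene identifiers were in both hnRNPA1 lists and in no hnRNP C list. The reverse held for 777.

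Peaks per gene nevertheless differed in degree. Among 9084 gene identifiers with a mean of at least 5 peaks, 2205 (24.3%) had a larger share of the hnRNPA1 peaks and 1991 (21.9%) a larger share of the hnRNP C peaks, by limma on the log2 share of peaks at a Benjamini-Hochberg adjusted p below 0.05. All hnRNPA1 libraries stood above all hnRNP C libraries in 3559 identifiers (39.2%) and below in 3163 (34.8%). The differences were moderate, with -0.84 and 1.02 on the log2 scale at the 10th and 90th percentiles, and 903 called genes passed 1 in the hnRNPA1 direction and 585 in the other. Leaving out hnRNPA1 replicate 1 or 2 lowered the hnRNPA1 calls to 1416 or 1429.

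The identifiers could not be paired with gene names, so the extremes are given by identifier and position. Positions run from the first to the last peak of the identifier over all 68 libraries of the study. ENSG00000204018, with peaks from 48232704 to 48462128 on the minus strand of chromosome 1, had 85 and 78 peaks in hnRNPA1 and 12 and 21 in hnRNP C. Its difference was 2.11 ± 0.175 (SE) on the log2 scale, with a limma adjusted p of 1.70e-08, and it held 31 hnRNPA1-only, 4 hnRNP C-only and 0 shared sites. ENSG00000151067, on the plus strand of chromosome 12 from 2162417 to 2764334, had 65 and 93 peaks in hnRNPA1 and 12 and 20 in hnRNP C (2.08 ± 0.176, limma adjusted p 2.10e-08). Extreme genes were chosen only where the libraries of both proteins did not overlap, so that separation is not a finding about them.

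ENSG00000106266, on the minus strand of chromosome 7 from 2291488 to 2393707, had 13 and 25 peaks in hnRNPA1 and 76 and 83 in hnRNP C. Its difference was -2.32 ± 0.188 (SE), with a limma adjusted p of 1.25e-08, and 42 of its sites were hnRNP C-only against 8 hnRNPA1-only. ENSG00000204130, on the minus strand of chromosome 10 from 70102964 to 70166678, had 15 and 19 peaks in hnRNPA1 and 60 and 66 in hnRNP C (-2.08 ± 0.161, limma adjusted p 7.95e-09). It had 29 hnRNP C-only and 2 hnRNPA1-only sites. Among genes with a mean of at least 20 peaks, the 12 largest differences in each direction ranged from 3.73-fold to 4.32-fold toward hnRNPA1 and from 3.54-fold to 4.99-fold toward hnRNP C. Called genes with fewer peaks had larger differences and are not given.

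The same contrast in libraries without PAGE, which share no sample with these, gave each gene a separate value. Of 4163 genes called at medium RNase and tested there, 3909 (93.9%) had the same sign, against 79.9% of all 9017 genes tested in both. By limma, 2799 (67.2%) were also called with the same sign and 25 with the opposite sign. There, 2215 of 10415 genes (21.3%) were called toward hnRNPA1 and 2336 (22.4%) toward hnRNP C. Across the 9017 genes, which are not independent replicates, Pearson's r between both differences was 0.78 and Spearman's rho 0.77. The 24 extreme genes all kept their sign and were called there by limma.

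The size of the difference was tested between the contrasts as an interaction over 8 libraries. It passed an adjusted p of 0.05 by limma in 90 of 9850 genes (0.914%), and in none of the 4 genes given above. In ENSG00000204018 the difference without PAGE was 1.64 ± 0.145, and in ENSG00000106266 it was -1.57 ± 0.139 (SE). RNase amount and PAGE both differ between the contrasts and cannot be told apart.

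Gene span, the distance from the first to the last peak of an identifier over all 68 libraries, went with the direction. Of 456 genes spanning at least 300000 nt, 258 (56.6%) were called toward hnRNPA1 and 26 (5.70%) toward hnRNP C, with a median difference of 0.36 against 0.03 over all genes. At 30000 to 100000 nt the order was the reverse, with 685 (19.2%) and 1004 (28.2%) of 3562 genes and a median of -0.08. Without PAGE, 321 and 18 of 455 genes of the longest class were called toward hnRNPA1 and hnRNP C. Peak number did not go one way: 1090 against 630 of 4274 genes with a mean of 5 to 20 peaks and 74 against 33 of 159 with at least 200 were called toward hnRNPA1 against hnRNP C. In between, hnRNP C led, with 724 against 591 at 20 to 50 peaks and 604 against 450 at 50 to 200. In the longest class, calls ranged from 114 to 303 toward hnRNPA1 and from 7 to 29 toward hnRNP C over the other settings. Genes spanning under 10000 nt leaned to hnRNPA1 at medium RNase (median 0.21) but not without PAGE (-0.05).

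**Figure D5:**
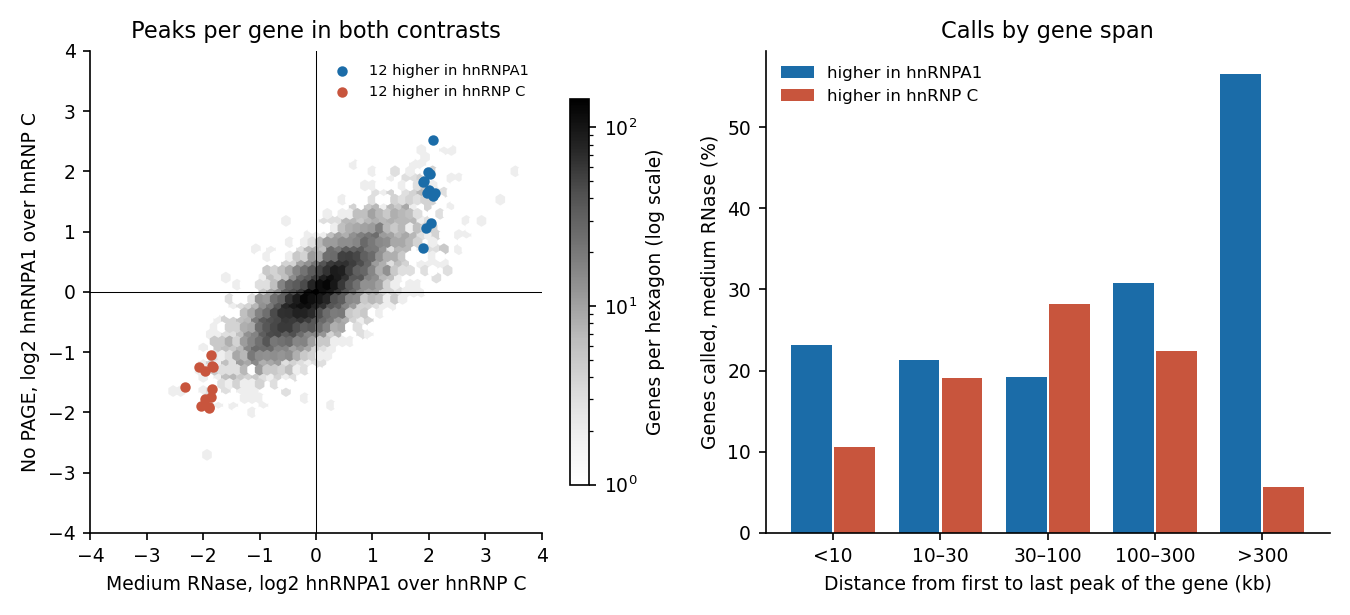
Left, log2 difference in the share of peaks between hnRNPA1 and hnRNP C for each gene at medium RNase and without PAGE (shading, genes per hexagon on a log scale; points, the 12 largest called differences in each direction). Right, percent of genes called in each direction by the distance from first to last peak over all libraries of the study: above 300 kb 56.6% lean to hnRNPA1 and 5.70% to hnRNP C.

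Chromosomes also differed in their calls. The hnRNP C direction led on chromosome 19, with 177 of 550 genes called against 94 toward hnRNPA1, on chromosome 16 with 136 against 72 of 420, and on chromosome 17 with 163 against 106 of 557. The hnRNPA1 direction led on chromosome 6, with 137 against 57 of 452 genes, on chromosome 4 with 98 against 47 of 313, and on chromosome X with 87 against 45 of 286. Without PAGE each of these 6 chromosomes had the same leading direction, for example 217 toward hnRNP C against 49 on chromosome 19. The leading direction turned on 4 of the 23 chromosomes. On chromosome 1, with the most genes, 242 were called toward hnRNPA1 and 173 toward hnRNP C, and 192 and 213 without PAGE. Chromosomes 15, 18 and 20 turned as well, with smaller numbers. The part of gene length and RNA abundance in this order was not tested.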

How the data were processed

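TLC-CLIP peak lists of 4 HEK293T libraries were used, with 12 other crosslinked libraries of both proteins titled 50k for the test of site classes. Peaks were called per library by CLIPper, per the file names, on hg19, per the submitters' processing notes, which also list bcl2fastq, STAR 2.7.3a and UMI-tools 1.0.1 without their roles. The deposited p-value of each peak is the one the authors' caller gave, with no adjustment stated. Every peak carries a gene identifier, and about 4.0% of peaks stand under more than 1 gene identifier.

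From these, sites, overlaps, distances and peaks per gene were computed in Python 3.11.15, all by strand. Peaks per gene were tested with limma 3.58.1 in R 4.3.3, as log2((peaks + 0.5) / (library peaks + 1)), up to a constant, with a trend and a mean of at least 5 peaks. Interval functions and the fit were tested on simulated data. The proteins, lists and rules were chosen with earlier results of these data known. Extreme genes were the 12 per direction with the largest called difference, a mean of at least 20 peaks and no overlap between groups, of which 2 per direction are given. Sites were the 6 per class with the highest lower read number, 1 per gene, of which some are given. Gene lists by name and motif content were not run: 0 identifiers matched a name.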

Additional observations from a re-analysis of the deposited data

Results flagged for a closer look

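In the group of 6 crosslinked hnRNP C libraries titled 50k and not of medium RNase, hnRNPc_50k_lowRNase replicate 1 lay far below the others for all 3 classes of site. It overlapped 0.129% of hnRNPA1-only, 1.09% of hnRNP C-only and 4.49% of shared sites, and its list held 3268 peaks, where the other replicate held 214849. Within this library the order of the classes was that of the other hnRNP C libraries. Chance alone sets a sample apart by this criterion in about 1 of 20 groups.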

How the results depend on the processing

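The difference between hnRNPA1 and hnRNP C libraries in the overlap of site classes ran from 5.87 to 8.33 over 20 alternatives, each at the smallest exact permutation p its relabellings allow. The 4 genes given by identifier kept direction and call in all 60 alternatives, with adjusted p up to 0.0328 by limma. Peak number and width kept their side of the threshold, in a design too small to pass it. Counts of sites and overlaps moved with list length. At p below 1e-05 there were 70770 hnRNPA1-only, 57373 hnRNP C-only and 5209 shared sites, and with 100000 best peaks per library 50530, 46749 and 3648. Leaving out a library, which leaves a class defined by 1 replicate, gave 165668 to 323456, 132848 to 286345 and 22398 to 37347; the shared count of 37347 was without hnRNP C replicate 1. The overlap of hnRNPA1 peaks with hnRNP C was 8.40% at p below 1e-05, 8.20% with the best peaks, 9.73% when at least 50% of the shorter peak had to be shared, and 9.76% to 13.9% without a library. From hnRNP C it was 9.20%, 7.92%, 10.9% and 12.1% to 14.3%. The median distance from hnRNPA1 was 1281.5 nt at p below 1e-05, 1439 nt with the best peaks and 497 to 659 nt without a library. From hnRNP C it was 839, 1099 and 422 to 467 nt. Genes called toward hnRNPA1 numbered 1387 at p below 1e-05, 776 with the best peaks, 3411 by summed read numbers, 1160 at a mean of at least 20 peaks, 1389 without the trend and 1416 to 2260 without a library. Fewer genes were tested at p below 1e-05 (5735), with the best peaks (4674) and at a mean of at least 20 peaks (4810), where 47.3%, 35.9% and 53.6% were called in either direction, against 46.2% of 9084. Toward hnRNP C they numbered 902 with the best peaks and 1613 to 1783 without a library. Without PAGE, 3880 were called toward hnRNP C by summed read numbers, and without a library 1448 to 2230 toward hnRNPA1 and 1811 to 2021 toward hnRNP C. A lone library was assumed to vary like the other group. The cause of these moves was not tested, beyond fewer peaks or libraries.

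With the replicate number as a block, 2286 and 2076 genes were called at medium RNase, and 2258 and 2365 without PAGE. Deviations of same-numbered libraries correlated at 0.0352 and -0.0137 across genes, and nothing else pairs them. Alternatives by rank, spacing, neighbours, gene span and the interaction were chosen after seeing the data. The planned motif content was not run.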

Other observations

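The site classes also differed in libraries of other proteins and without crosslinking, none of which entered the comparison. RBFOX2 at low RNase overlapped 17.0% and 13.9% of hnRNPA1-only sites, against 7.73% and 6.51% moved by 1000 nt. It overlapped 5.13% and 3.95% of hnRNP C-only sites, against 7.42% and 6.34% moved, and 34.6% and 29.5% of shared sites. The RBFOX2 libraries labelled 10k had the same order, with 9.78% and 11.0% of hnRNPA1-only against 3.10% and 3.20% of hnRNP C-only sites. For hnRNPI at low RNase the values were closer, with 11.0% and 9.58% of hnRNPA1-only and 7.92% and 6.15% of hnRNP C-only sites. Without crosslinking but with PAGE, the hnRNPA1 antibody had peaks on 27.1% and 26.1% of hnRNPA1-only sites, against 4.99% and 4.57% moved. On hnRNP C-only sites it had 0.678% and 0.574%, against 4.65% and 4.16% moved. The hnRNP C antibody without crosslinking had peaks on 35.5% and 23.9% of hnRNP C-only sites, against 12.1% and 12.1% moved. On hnRNPA1-only sites it had 7.61% and 7.90%, below the 8.80% and 8.66% of moved sites.

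Mitochondrial peaks were few at medium RNase, 27 and 30 in hnRNPA1 and 64 and 80 in hnRNP C, and the groups did not overlap. Such separation was common: in peaks per gene it held toward hnRNPA1 in 39.2% and toward hnRNP C in 34.8% of 9084 identifiers. All classes were denser toward the 5′ end of the span of their gene. Of 10 equal parts of the span, the first held 15.0% of hnRNPA1-only, 15.2% of hnRNP C-only and 18.9% of shared sites, and the last 7.47%, 7.03% and 8.18%.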
